A study of Mus musculus with 2 samples.

Results

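The 7 surface proteins by which immunologists stage developing γδ T cells were followed through their mRNA, namely those encoded by Cd24a, Cd44, Cd27, Cd2, Cd5, Cd6 and Cd69. They were picked by gene symbol, and all 7 of 7 were found once among the 31053 gene features of the deposited tables. No cutoff on measured values was used in that choice, but earlier results of these data were known when it was made. The transcripts were read in 2 single-cell RNA libraries of fetal mouse thymus.

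CD24, a small glycoprotein held in the membrane by a lipid anchor, is abundant on immature thymocytes and is lost from the surface as they mature. CD44 is a receptor for hyaluronan that rises on activated and effector cells, and CD27 is a TNF receptor family costimulator kept by γδ cells that go on to make interferon-γ and lost by those that make IL-17. CD2 is an adhesion molecule of the CD48 pathway, CD5 and CD6 are related scavenger receptor family proteins that temper T cell receptor signals, and CD69 is an early activation antigen that opposes the egress receptor S1PR1.

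The cells came from wild-type C57BL/6 embryos whose thymic lobes were removed at embryonic day 15 and kept 2 days in untreated culture. CD24-positive γδ T cells were stained with TMRE, a fluorescent dye drawn into energised mitochondria, and divided by sorting into a bright fraction, TMREhi, and a dim fraction, TMRElo. Each fraction is 1 library from the 10x Genomics 5′ kit, so there are no replicates and no p-value is given. No source used here gives the number of embryos or says whether they were pooled. Both fractions passed one and the same CD24 gate, which acts on the protein, whereas the values below count mRNA.

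A barcode is the tag shared by transcripts of 1 droplet, and a UMI marks 1 captured transcript. TMREhi held 1202 barcodes with 4350485 UMIs and TMRElo 196 barcodes with 245048 UMIs, and 0 barcode sequences were shared between them. Barcodes with at least 500 genes and at most 10% mitochondrial UMIs, called retained here, numbered 317 (median 7465 UMIs) and 34 (median 1679 UMIs). Dropping the mitochondrial limit left 1025 and 133 barcodes. Those fell into a high-ribosomal class, with at least 15% of UMIs from ribosomal protein genes (292 and 16 barcodes), and a low-ribosomal class (733 and 117). The low-ribosomal barcodes were shallow, with medians of 1555 and 1037 UMIs and 16.9% and 14.4% mitochondrial UMIs. All 9 of 9 γδ T cell markers were detected in both libraries, among them Trdc and the CD3 genes. Erythroid markers were at 0 in both (0 of 6), as were the B cell markers Cd79a, Ms4a1 and Pax5. The B cell marker Cd79b stood at 23.8 and 9.12 CPM, where CPM is the gene's UMIs per 1000000 UMIs of the barcodes summed. Myeloid markers had 662 UMIs in TMREhi, of which 592 were in 6 barcodes, and 3 in TMRElo. Those 6 barcodes held 4 Cd44 UMIs and 0 UMIs of the other 6 genes. Markers of αβ lineage thymocytes summed to 524 CPM in retained TMREhi (10 of 10 detected) and 371 in retained TMRElo barcodes (5 of 10, with Rag1, Rag2, Cd4 and Ptcra among those at 0).

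Levels below are CPM of summed barcodes. Shares are the percentage of barcodes with at least 1 UMI after each barcode was thinned at random to 1000 UMIs, with shallower barcodes left out. Brackets hold exact 95% intervals, which cover counting error only.

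In the GENCODE vM21 annotation of GRCm38 each of the 7 is a protein-coding gene. Cd24a lies on chr10:43578284-43584265 on the forward strand. The other 6 lie on the reverse strand, Cd44 at chr2:102811141-102901665, Cd27 at chr6:125232622-125237010, Cd2 at chr3:101275899-101287939, Cd5 at chr19:10717116-10739002, Cd6 at chr19:10789341-10830058 and Cd69 at chr6:129267325-129275436. Cd5 and Cd6 are neighbours, 50338 bases apart with 0 protein-coding genes between them. Cd27 lies inside the span of Vamp1 on the opposite strand but shares 0 exonic bases with it, and whether the counting used strand is not given in the sources used here.

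Cd44 and Cd27 moved in opposite directions between barcodes led by different γ V segments (below), so the 250 bases before their start sites are shown, on the genes' own strand. The RefSeq promoter table of build GRCm38.p6 held 3 of the 7 genes. Capitals mark the E-box letters CANNTG, the core read by E proteins and other basic helix-loop-helix factors. The Cd44 window is chr2:102901666-102901915 and the Cd27 window, intronic to Vamp1, is chr6:125237028-125237277.
Cd44: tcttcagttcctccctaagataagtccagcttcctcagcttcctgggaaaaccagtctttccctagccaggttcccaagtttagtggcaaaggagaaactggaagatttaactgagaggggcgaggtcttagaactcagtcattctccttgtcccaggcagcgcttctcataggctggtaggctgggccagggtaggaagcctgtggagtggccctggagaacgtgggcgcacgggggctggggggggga
Cd27: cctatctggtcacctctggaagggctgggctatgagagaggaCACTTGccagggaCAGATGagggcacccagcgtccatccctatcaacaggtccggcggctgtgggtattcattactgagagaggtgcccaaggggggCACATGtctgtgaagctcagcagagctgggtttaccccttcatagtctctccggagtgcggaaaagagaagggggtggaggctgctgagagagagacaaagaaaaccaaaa
The Cd27 window held 3 E-boxes and the Cd44 window 0. Of 32851 promoter windows of that length, 66.2% held at least 1, and the median was 1. The letters TGTGGT (RUNX), TGANTCA (AP-1) and GGGCGG (GC box), searched on both strands, were in neither window and in 14.0%, 6.75% and 32.7% of all windows. Such matches describe letters and not occupied sites.

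Cd24a mRNA separated the libraries, although both were sorted as CD24-positive. Retained TMREhi barcodes held 438 Cd24a UMIs, 151 CPM (137–166), and retained TMRElo barcodes held 0 (up to 35.1 CPM). The TMREhi over TMRElo ratio had an exact lower limit of 4.28. Set against a floor of 3 UMIs in TMRElo, the ratio was 5.28. Over all barcodes with at least 500 genes the levels were 127 and 13.7 CPM (3 TMRElo UMIs), a ratio of 9.25 (3.15–45.0). The low-ribosomal class gave a smaller ratio of 3.12 (1.03–15.4), at 69.3 and 22.2 CPM, and in its Vγ1-family-led barcodes, defined below, the interval held 1 (2.31, 0.588–19.9). After thinning, 11.3% (7.89–15.6) of 282 retained TMREhi barcodes and 0 of 27 TMRElo barcodes (up to 12.8%) had a Cd24a UMI, so these 2 intervals overlapped. Unthinned, the shares were 40.1% and 0%. Without the mitochondrial limit the thinned shares were 7.74% (6.05–9.72) of 866 and 1.19% (0.0301–6.46) of 84 barcodes, and unthinned 20.1% and 2.26%. Among barcodes led by the segment Tcrg-V6, described below, 0 of 84 (up to 4.30%) had a Cd24a UMI at the same depth.

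Cd27 was higher in TMRElo once more barcodes were counted. In retained barcodes it stood at 189 (173–205) CPM in TMREhi and 257 (169–374) in TMRElo, and the ratio interval held 1. With all barcodes of at least 500 genes the levels were 199 and 310 CPM, 1.56-fold higher in TMRElo (1.20–2.00). The share of barcodes with a Cd27 UMI was then 18.2% (15.7–20.98) against 34.5% (24.5–45.7) after thinning, and 38.4% against 37.6% without it. The gap in shares was thus seen at equal depth and not in raw barcodes, with 29 of 84 thinned TMRElo barcodes carrying the transcript. Within Vγ1-family-led barcodes alone the ratio was 1.14 (0.766–1.63), so this difference was not separable from counting error there. Cd27 in the low-ribosomal class stood at 232 and 363 CPM, 1.56-fold higher in TMRElo (1.13–2.12), and in the high-ribosomal class at 184 and 225 (1.22, 0.731–1.93).

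Cd44 read higher in TMRElo, but on very few barcodes. Retained TMREhi barcodes held 37 Cd44 UMIs in 29 barcodes, 12.7 CPM (8.97–17.6), and TMRElo held 7 UMIs in 2 barcodes, 66.6 CPM (26.8–137). The 5.23-fold gap (1.97–11.9) rested on 1 TMRElo barcode with 85.7% of the UMIs, and without the top barcode of each library the log2 ratio was 0.22 in favour of TMREhi. Shares were alike at 2.84% (1.23–5.51) and 3.704% (0.0937–19.0) after thinning, and 9.15% and 5.88% before. Over all deposited barcodes 5 TMRElo barcodes held Cd44, with 8, 6, 4, 1 and 1 UMIs. The 3 with the most also held 28, 78 and 56 UMIs of Xcl1, a chemokine of cytotoxic lymphocytes. Intervals on such counts treat UMIs as independent and do not describe spread between cells.

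The inhibitory pair Cd5 and Cd6 leaned to TMREhi, with ratio intervals that cleared 1 among low-ribosomal but not among retained barcodes. In retained barcodes Cd5 stood at 48.9 (41.2–57.6) and 38.1 (10.4–97.5) CPM and Cd6 at 19.96 (15.2–25.8) and 9.52 (0.241–53.0), from 4 and 1 TMRElo UMIs. Neither ratio, 1.28 (0.491–4.78) for Cd5 and 2.10 (0.362–84.3) for Cd6, cleared 1. In the high-ribosomal class, with 16 TMRElo barcodes, the Cd5 ratio was 1.37 (0.458–6.70). Cd6 had 53 UMIs against 0 there, with a lower limit of 0.400. These intervals overlapped those of the low-ribosomal class, so the classes could not be told apart. Among low-ribosomal barcodes Cd5 stood at 104 (87.6–123) and 22.2 (4.58–65.0) CPM, 4.70-fold higher in TMREhi (1.57–23.1). There Cd6 stood at 76.2 (62.0–92.7) and 7.41 (0.188–41.3), 10.3-fold higher (1.80–410.2), on 100 UMIs against 1. Summed αβ lineage markers moved the same way in that class, at 2154 CPM in TMREhi and 711 in TMRElo (10 and 7 of 10 detected, with Rag2 and Ptcra among those at 0 in TMRElo). In its Vγ1-family-led barcodes, where those markers stood at 849 and 714 CPM, Cd5 was 7.90-fold higher (1.36–318) and Cd6 had 28 UMIs against 0. Of the 5 myeloid-marker barcodes deep enough to thin, 0 had a UMI of Cd2, Cd5 or Cd6 (up to 52.2%), which are too few to set a background. Thinned shares of the low-ribosomal class were 6.75% (4.84–9.11) and 1.47% (0.0372–7.92) for Cd5, and 5.71% (3.96–7.92) and 0 of 68 (up to 5.28%) for Cd6, with 11.5% against 2.56% and 11.5% against 0.855% unthinned.

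Cd2 and Cd69 did not differ between the libraries beyond counting error. Cd2 stood at 76.4 (66.7–87.1) and 114 (59.0–199) CPM in retained barcodes, with a TMREhi over TMRElo ratio of 0.669 (0.375–1.31). Cd69 stood at 43.0 (35.8–51.3) and 66.6 (26.8–137) CPM, a ratio of 0.646 (0.304–1.64). In the low-ribosomal class the ratios were 1.10 (0.658–1.97) for Cd2 and 1.23 (0.711–2.29) for Cd69, and both intervals held 1.

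Counts of members are set here against all genes. A gene was called when its log2 ratio, after adding 1 CPM to each level, was at least 1 or at most −1, that is 2-fold, among genes averaging at least 10 CPM. Of the 7 retained-barcode ratios, 1 was called higher in TMREhi (Cd24a) and 1 lower (Cd44), where 10.0% of 7802 genes were called higher and 29.9% lower. With at least 500 genes and no mitochondrial limit, 3 were called higher (Cd24a, Cd5 and Cd6) and 1 lower (Cd44), beside 10.7% and 21.4% of 8507 genes. The low-ribosomal class gave the same 3 and 1, beside 15.8% and 13.4% of 8831 genes. The median log2 ratio of the members was −0.44 and that of all genes tested −0.35 in retained barcodes. Leaving mitochondrial and ribosomal protein genes out of the totals raised the latter by 0.15, to −0.20.

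**Figure D1:**
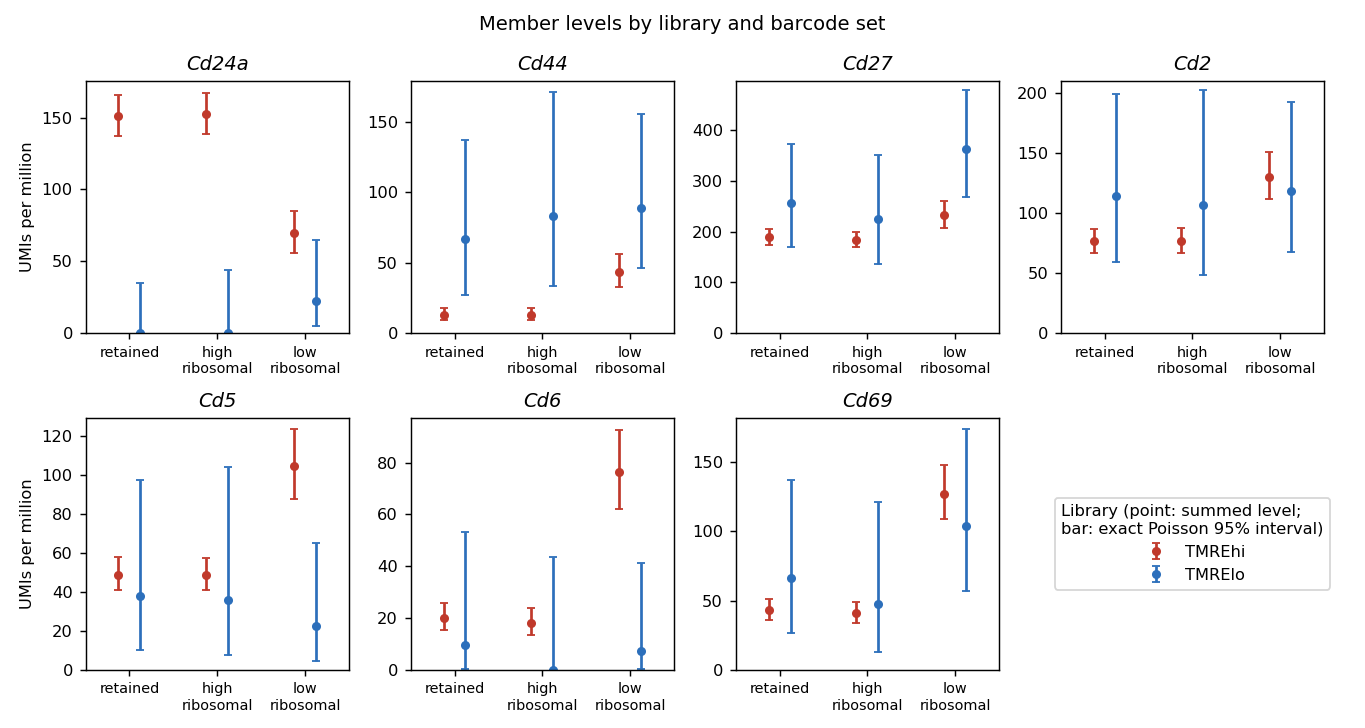
Level of each gene (CPM, linear axis from 0) in TMREhi and TMRElo for retained, high-ribosomal and low-ribosomal barcodes, with points for levels and bars for exact Poisson 95% intervals. Cd24a is at 151 against 0 CPM in retained barcodes, and Cd5 and Cd6 are at 104 against 22.2 and 76.2 against 7.41 in the low-ribosomal class.

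Leading γ V segments gave a sharper division, and within 1 library. Each barcode was assigned to the γ V segment with the most UMIs, with the near-identical Trgv2, Tcrg-V1 and Tcrg-V3 summed as the Vγ1 family because reads may be shared among them. In TMREhi the Vγ1 family led in 404 barcodes (median 3594.5 UMIs), Tcrg-V6 in 93 (1917 UMIs), Tcrg-V4 in 73 (1845 UMIs) and Tcrg-V5 in 38 (1393 UMIs). No γ V UMI was found in 165 barcodes that held Rag1, a recombinase gene of earlier thymocytes (median 1188 UMIs), nor in 162 without Rag1 (1339 UMIs). Tcrg-V6 encodes the Vγ6 chain of the fetal wave that makes IL-17, and Tcrg-V5 the Vγ5 chain of epidermal γδ cells. TMRElo had 0 barcodes led by Tcrg-V6 and 0 with Rag1 but no V segment, so the libraries cannot be compared there.

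Cd24a was nearly missing from Tcrg-V6-led barcodes. These held 1 Cd24a UMI, 3.44 CPM (0.0871–19.2), against 409 UMIs and 149 CPM (135–165) in Vγ1-family-led barcodes, 43.4-fold lower (7.75–1720.0). In the high-ribosomal class the counts were 0 UMIs in 39 barcodes and 378 UMIs in 198, 11.3-fold lower with the floor of 3 UMIs in place of 0. In the low-ribosomal class they were 1 UMI in 54 barcodes (11.9 CPM) and 31 UMIs in 206 (70.2 CPM). The log2 ratio there was −2.47, resting on that 1 UMI, and the ratio interval held 1. Over both classes, thinned shares were 0 of 84 and 9.23% (6.55–12.6), and unthinned shares 1.08% and 33.7%. Levels in Tcrg-V4-led barcodes (142 CPM, 97.4–201, with 37.5% of the UMIs in 1 barcode) and in Rag1 barcodes without V (135, 96.6–183) overlapped that of the Vγ1 family. In the low-ribosomal class alone the Rag1 barcodes were 1.78-fold above it (1.05–3.03). Barcodes with neither V nor Rag1 stood lower at 69.9 (43.3–107), though within the low-ribosomal class the ratio to the Vγ1 family was 0.921 (0.470–1.74). Tcrg-V5-led barcodes had 38.8 CPM, with all 4 UMIs in 1 of 38 barcodes. Summed over both classes, the Vγ1 family, Tcrg-V4 and Rag1 barcodes were together at the top. Tcrg-V6 was last, with an interval that overlapped that of its neighbour Tcrg-V5. Within the low-ribosomal class that top did not hold. There Rag1 barcodes stood above the Vγ1 family, and Tcrg-V4-led barcodes were at 58.2 CPM on 7 UMIs.

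Cd44 was highest where Cd24a was lowest. Tcrg-V6-led barcodes held 37 Cd44 UMIs spread over 30 of 93 barcodes, 127 CPM (89.6–175), and Vγ1-family-led barcodes 28 UMIs in 26 of 404, 10.2 CPM (6.80–14.8), a ratio of 12.4 (7.41–21.1). It was 11.8 (5.61–24.98) in the high-ribosomal and 8.73 (4.07–19.6) in the low-ribosomal class. At equal depth 16.7% (9.42–26.4) of Tcrg-V6-led and 2.82% (1.42–4.99) of Vγ1-family-led barcodes had a Cd44 UMI, against 32.3% and 6.44% unthinned. For background, the share was 1.10% (0.0278–5.97) in Rag1 barcodes without V and 0 of 66 (up to 5.44%) in Tcrg-V4-led barcodes. Tcrg-V5-led barcodes followed with 87.2 CPM (39.9–166), 8.53-fold over the Vγ1 family (3.54–18.6), all 9 UMIs in the low-ribosomal class, and its interval overlapped that of Tcrg-V6. Barcodes with neither V nor Rag1 had 26.6 CPM (11.5–52.5), a ratio of 2.60 (1.03–5.86) that was 0.446 (0.0808–1.65) within the low-ribosomal class and 13.6 (3.89–38.8), on 5 UMIs, within the high-ribosomal class. Myeloid markers summed to 1332 CPM in that group and 60.6 in the Vγ1 family, and the myeloid-marker barcodes (above) held Cd44 UMIs. Their part in the Cd44 level of that group was not tested. The lowest Cd44 levels were in Tcrg-V4-led (1 UMI, 4.45 CPM) and Rag1 barcodes (2 UMIs, 6.57 CPM), which did not differ from the Vγ1 family beyond counting error.

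Cd27 followed Cd24a in being low with Tcrg-V6, the pattern by which CD27-negative γδ cells are known. It stood at 31.0 CPM (14.2–58.8) in Tcrg-V6-led and 214 (197–232) in Vγ1-family-led barcodes, 6.90-fold lower (3.61–15.2), with 8.45-fold (3.60–26.2) in the high- and 5.49-fold (2.09–20.5) in the low-ribosomal class. Thinned shares were 1.19% (0.0301–6.46) and 22.6% (18.5–27.0), and unthinned 7.53% and 56.2%. Tcrg-V4-led barcodes had the highest level, 285 CPM (219–364), 1.33-fold over the Vγ1 family (1.01–1.73), with 1.31 (0.893–1.88) in the low-ribosomal class. The remaining groups, at 223 (neither V nor Rag1), 171 (Rag1) and 155 (Tcrg-V5) CPM, had ratios to the Vγ1 family whose intervals held 1. In TMRElo, 20 Tcrg-V4-led barcodes stood at 617 CPM (328–1054), from 13 UMIs, which was 1.81-fold above their low-ribosomal TMREhi counterparts with an interval that held 1 (0.890–3.44).

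Cd2 was likewise low in Tcrg-V6-led barcodes. It stood at 24.1 CPM (9.68–49.6) there and at 93.5 (82.4–106) in Vγ1-family-led barcodes, 3.88-fold lower (1.86–9.76). The gap was 5.64-fold (1.90–27.6) in the high- and 3.24-fold (1.21–12.2) in the low-ribosomal class. Thinned shares of 3.57% (0.743–10.1) and 9.23% (6.55–12.6) overlapped, with 5.38% and 30.4% unthinned. The highest level was in barcodes with neither V nor Rag1, 173 CPM (129–227), 1.85-fold over the Vγ1 family (1.35–2.502) but 1.15 (0.771–1.71) within the low-ribosomal class. Rag1 barcodes without V were 2.39-fold below the Vγ1 family (1.37–4.41) in that class.

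Cd69 was highest in the same group as Cd44. Tcrg-V6-led barcodes stood at 199 CPM (151–258) and Vγ1-family-led barcodes at 47.1 (39.3–56.0), a ratio of 4.23 (3.05–5.81). By class the ratio was 4.08 (2.57–6.32) and 3.04 (1.85–4.90). Shares were 21.4% (13.2–31.7) and 5.64% (3.57–8.42) thinned, and 31.2% and 19.1% unthinned. Barcodes without V and without Rag1 (156 CPM, 115–208) and Tcrg-V5-led barcodes (145, 81.4–240) came next, and all 3 intervals overlapped. Rag1 barcodes without V held 0 Cd69 UMIs among 304431. With the floor of 3 UMIs in place of 0, they were 4.78-fold below the Vγ1 family, and 9.37-fold in the low-ribosomal class. Their thinned share, 0 of 91 (up to 3.97%), is a background for the other Cd69 shares.

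Cd5 and Cd6 divided the groups differently. Cd5 was 2.09-fold lower (1.08–4.64) in Tcrg-V6-led than in Vγ1-family-led barcodes, at 31.0 (14.2–58.8) against 64.7 (55.5–74.9) CPM. Cd6, at 20.6 (7.57–44.9) against 25.9 (20.3–32.7), gave a ratio interval that held 1. Both peaked in barcodes with neither V nor Rag1, Cd5 at 196 (150–253) and Cd6 at 130 (92.3–177) CPM. That was 3.04-fold (2.22–4.10) and 5.01-fold (3.30–7.50) above the Vγ1 family, and 1.82-fold (1.22–2.71) and 2.36-fold (1.40–3.998) within the low-ribosomal class. Rag1 barcodes without V split the pair, with Cd5 2.81-fold lower (1.34–7.10) and Cd6 2.28-fold higher (1.28–3.87) than the Vγ1 family. Within the low-ribosomal class Cd5 stayed lower, 4.26-fold (1.93–11.1), and the Cd6 ratio was 1.08 (0.555–2.04). Tcrg-V5-led barcodes held 1 Cd5 UMI.

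Across the 7 members, 2 were called 2-fold higher in Tcrg-V6-led than in Vγ1-family-led barcodes (Cd44 and Cd69) and 4 lower (Cd24a, Cd27, Cd2 and Cd5). Of 7977 genes 12.5% were called higher and 11.3% lower, and the median log2 ratio was −1.04 for the members and 0.06 for all genes. Each ribosomal class again gave 2 and 4, beside 13.5% and 15.7% of genes in the high class and 13.5% and 17.3% in the low class. In the high class Cd6, on 1 UMI, took the place of Cd5 among the 4, as Cd5 was there 1.86-fold lower (0.830–5.16). Myeloid markers summed to 13.8 CPM in Tcrg-V6-led barcodes (1 of 7 detected, Fcgr3 with 4 UMIs) and to 60.6 in the Vγ1 family (7 of 7), and summed αβ lineage thymocyte markers stood at 344 CPM against 476 in the Vγ1 family. Tcrg-V4-led barcodes, by contrast, had 0 members called in either direction, beside 17.0% and 5.03% of genes, with 6 of 7 passing the level filter. Tcrg-V5-led barcodes had 2 called higher (Cd44 and Cd69) and 2 lower (Cd24a and Cd5), beside 21.9% and 12.5% of genes. Rag1 barcodes without V had 1 higher (Cd6) and 2 lower (Cd5 and Cd69) of 6 that passed, beside 31.6% and 11.4%. Barcodes with neither V nor Rag1 had 4 higher (Cd44, Cd5, Cd6 and Cd69) and 1 lower (Cd24a), beside 32.8% and 8.81%. The median ribosomal share was 4.66% and 4.98% in these last groups and 13.9% in the Vγ1 family, and counts changed when low-ribosomal barcodes alone were compared. Rag1 barcodes then had 0 members called higher and 4 lower (Cd44, Cd2, Cd5 and Cd69), beside 11.0% and 13.0% of genes. Barcodes with neither V nor Rag1 had 1 higher (Cd6) and 1 lower (Cd44, on 3 UMIs), beside 7.39% and 8.63%. Tcrg-V5-led barcodes kept the same 2 higher and 2 lower, beside 21.8% and 23.8%, and Tcrg-V4-led barcodes had 0 higher and 1 lower (Cd44, on 1 UMI), beside 9.53% and 11.1%. The αβ lineage markers, a list that holds Rag1, summed to 5755 CPM in Rag1 barcodes and 1791 in those with neither. Myeloid markers summed to 250 and 1332 CPM in the same groups. The part of either list in these values was not tested.

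**Figure D2:**
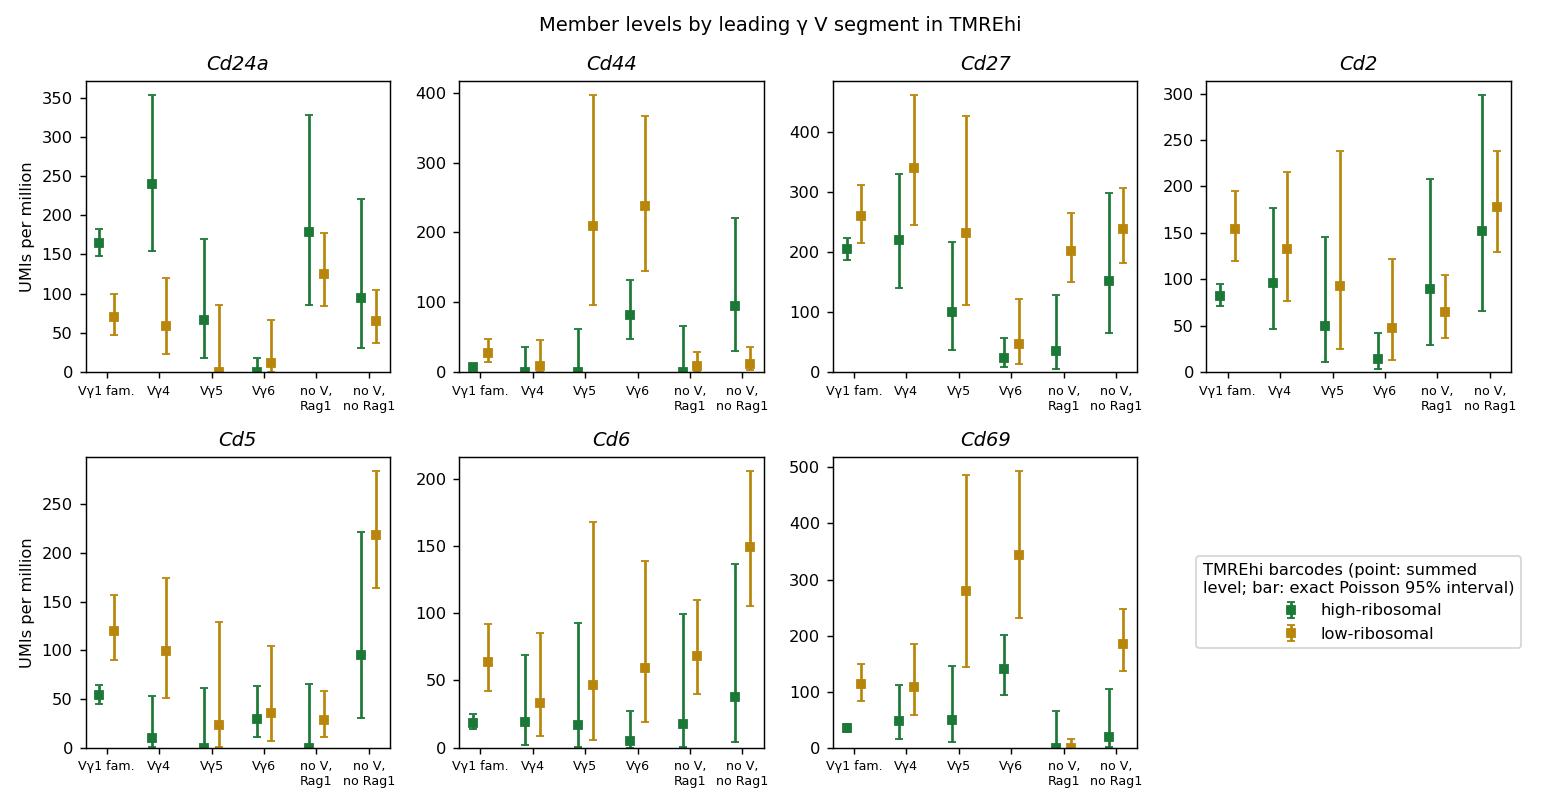
Level of each gene (CPM, linear axes from 0) in TMREhi barcodes by leading γ V segment, in the high- and low-ribosomal class, with exact Poisson 95% intervals as bars. For Vγ6, Cd27 is at 24.2 and 47.5 CPM in the high- and low-ribosomal class, against 205 and 260 for the Vγ1 family, and Cd44 at 82.3 and 237 against 6.97 and 27.2.

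The ribosomal classes of TMREhi also differed in member levels, and Cd24a was the 1 member higher in the high-ribosomal class. It stood at 152 (138–167) CPM there and 69.3 (55.8–85.1) in the low class, 2.20-fold higher (1.75–2.78), and within Vγ1-family-led barcodes 2.35-fold (1.62–3.50). Shares were 11.1% (7.73–15.3) and 6.06% (4.25–8.32) thinned, and 45.2% and 10.1% unthinned. The other 6 were lower in the high class. Cd6 was 4.20-fold lower (2.98–5.98), at 18.1 against 76.2 CPM. All 10 αβ lineage markers were detected in both classes, and their sum was also lower in the high class, at 437 against 2154 CPM. In Vγ1-family-led barcodes, where that sum was 404 against 849, Cd6 was 3.38-fold lower (2.02–5.57). The median log2 ratio of all genes tested in those barcodes was −0.85. Over the whole classes Cd44 was 3.34-fold lower (2.18–5.18), on 38 against 57 UMIs. Cd69 was 3.10-fold lower (2.44–3.95), Cd5 2.15-fold (1.69–2.74), Cd2 1.70-fold (1.39–2.08) and Cd27 1.26-fold (1.09–1.46).

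Those falls have to be read against a background that moved the same way. In the high-ribosomal class 45.0% of 8447 genes were called lower and 10.7% higher, beside 4 members lower and 1 higher, and the median log2 ratio of all genes was −0.85 (members −1.09). Ribosomal protein genes, which define the class, take up part of the total there. Leaving them and mitochondrial genes out of the total raised the median of all genes by 0.22, to −0.63, and moved Cd27 from −0.33 to −0.10 on the log2 scale. Cd24a was still higher and the other 5 still lower. Cd27 and Cd2 (−0.53) were then lower by less than that median, and Cd44, Cd5, Cd6 and Cd69 by more. Depth, mitochondrial share and class move together (above), and their part in these differences was not tested. In TMRElo the 16 high-ribosomal barcodes held 0 Cd24a UMIs, and each member's ratio interval between classes held 1.

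Cd24a and Cd44 were almost never found together in the same barcode. Of the 1025 TMREhi barcodes, 204 held Cd24a without Cd44, 77 held Cd44 without Cd24a, and 2 held both. After thinning to 1000 UMIs, 1 of 34 Cd44-positive barcodes (2.94%, 0.0744–15.3) had a Cd24a UMI, against 66 of 832 without Cd44 (7.93%, 6.19–9.98). The intervals overlap, as 34 barcodes set wide limits. Averaged over all possible random draws, the Cd24a share was 0.582% with Cd44 and 7.77% without. At 2000 UMIs it was 0 of 21 (up to 16.1%) against 16.5% (13.3–20.1). The lone thinned barcode with both was of the Rag1 group, and among Vγ1-family-led barcodes 0 of 11 Cd44-positive (up to 28.5%) and 9.50% of the other 379 had Cd24a. Leaving out Tcrg-V6-led barcodes gave 1 of 20 (5%, 0.127–24.9) and 8.66%.

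Cd24a and Cd27, in contrast to Cd24a and Cd44, were often found together in unthinned barcodes. At 1000 UMIs, however, the Cd24a share was alike with and without Cd27, at 8.04% and 7.36% averaged over all random draws. Unthinned, 141 barcodes held both, 65 Cd24a alone and 253 Cd27 alone, a count that rises with depth. At 1000 UMIs 14 of 158 Cd27-positive barcodes (8.86%, 4.93–14.4) and 53 of 708 others (7.49%, 5.66–9.68) had Cd24a. At 2000 UMIs the shares were 21.8% (15.4–29.3) and 13.5% (10.2–17.4), with overlapping intervals. In the high-ribosomal class at that depth they were 32.4% (21.8–44.5) and 14.98% (10.4–20.6), which did not overlap, though averaged over all draws they were 23.1% and 17.2%. Within the Vγ1 family at 1000 UMIs they were 10.2% (4.78–18.5) and 8.94% (5.97–12.7). In Tcrg-V6-led barcodes Cd44 and Cd27 were found together in 0 of 93 barcodes, with Cd44 alone in 30 and Cd27 alone in 7.

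**Figure D3:**
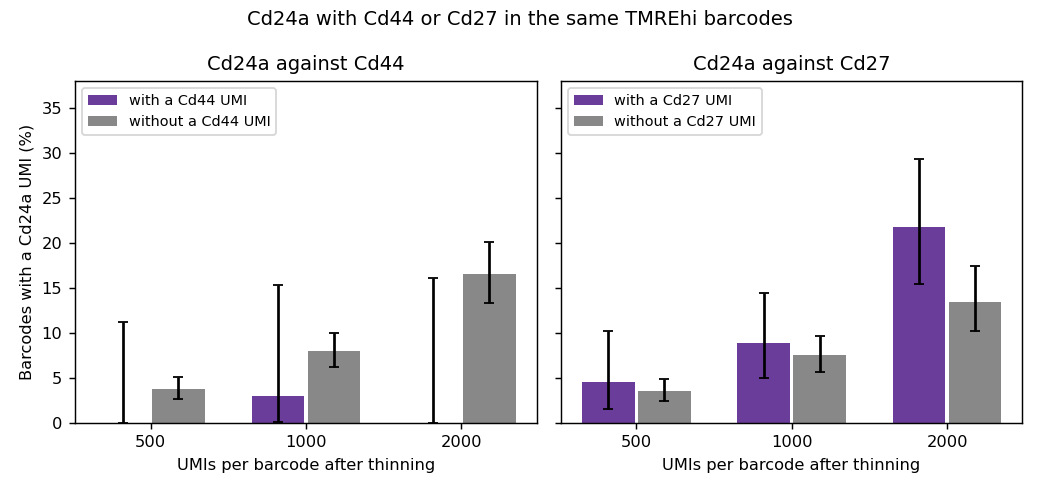
Share of TMREhi barcodes with a Cd24a UMI (%, bars from 0) among those with and without a UMI of Cd44 (left) or Cd27 (right), at 500, 1000 and 2000 UMIs per barcode, with exact binomial 95% intervals. With Cd44 the share is 0, 2.94 and 0%, and with Cd27 4.50, 8.86 and 21.8%.

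Of the 21 pairs of members, Cd5 with Cd6 and Cd2 with Cd5 had intervals that did not overlap. At 1000 UMIs Cd5 was found in 13 of 38 Cd6-positive barcodes (34.2%, 19.6–51.4) and in 4.71% (3.37–6.38) of the rest. Averaged over all random draws, these shares were 23.2% and 5.75%. Cd2 was found in 23.1% (12.5–36.8) of Cd5-positive and 8.23% (6.44–10.3) of Cd5-negative barcodes, or 24.5% and 8.35% over all draws. All 3 genes were higher in the low-ribosomal class (above), and the part of class in these pairs was not tested. Cd69 was found in 17.6% (6.76–34.5) of Cd44-positive barcodes and 7.69% (5.97–9.72) of the rest, with overlapping intervals. A barcode thinned to that depth showed few of these genes at a time. None of the 7 was seen in 56.9% (53.6–60.3) of 866 TMREhi barcodes, 1 in 278, and 2 or more in 95, with 5 at most. In TMRElo none was seen in 50.0% (38.9–61.1) of 84 barcodes.

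Over 13 groups of at least 15 barcodes, formed by library, ribosomal class and leading V, member levels fell into loose sets. Pearson correlations of log2(level + 10) are given as a description, since the groups share libraries, depth and class. The largest among members were 0.75 for Cd5 with Cd6, 0.71 for Cd44 with Cd69 and 0.71 for Cd27 with Cd2, and the lowest were −0.56 for Cd24a with Cd69 and −0.51 for Cd24a with Cd44. Of 5153 genes, Cd24a was most like Marcksl1 (0.94), Dntt (0.91), the terminal transferase of early lymphocytes, and Hnrnpab (0.87). Cd44 was most like St6galnac3 (0.92), Pon2 (0.89) and the AP-1 factor gene Junb (0.87). Cd27 was most like Dpp4 (0.94), which encodes the peptidase CD26, Il21r (0.90) and Pcm1 (0.89).

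For Cd2 the nearest were Orc5 (0.88), Smarcc1 (0.86) and Prkca (0.85). For Cd5 they were Hells (0.89), Mcm3 (0.83), a subunit of the replicative helicase, and Polb (0.82). Nde1 (0.88) and Bora (0.88) were among the 3 nearest to Cd6. Cd69 lay nearest to Rgs1 (0.92), a regulator of G protein signalling, Ahnak (0.90) and Clec2d (0.87).

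**Figure D4:**
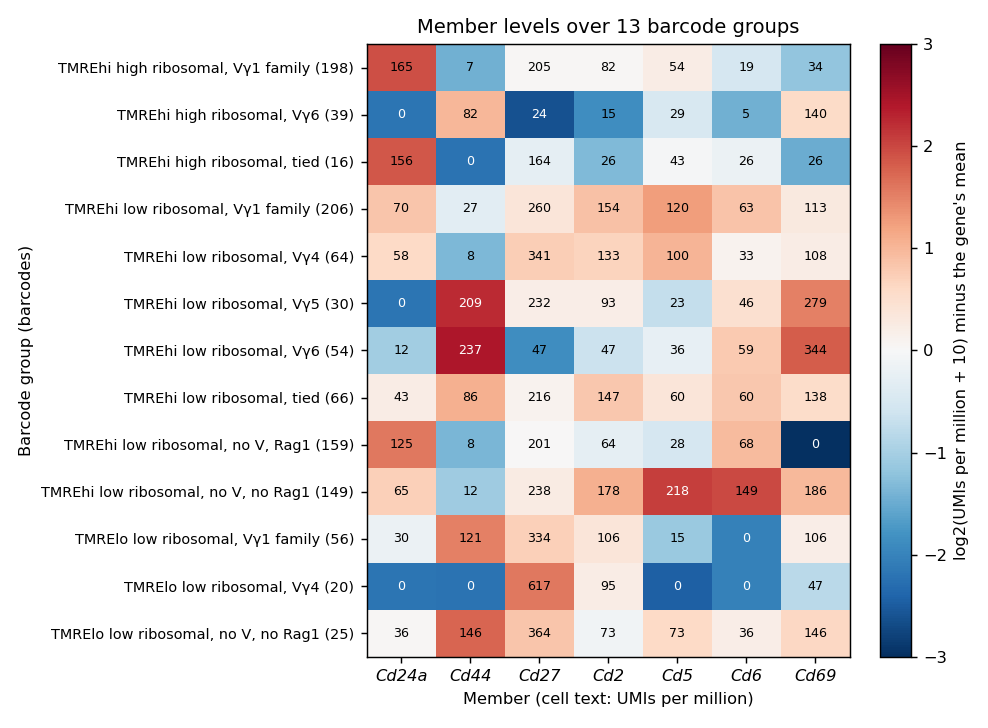
Level of each gene over 13 barcode groups, coloured by log2(CPM + 10) minus the gene's mean, with CPM printed in each cell and barcode numbers in brackets. The TMREhi Vγ6 rows are at 0 and 11.9 CPM for Cd24a and at 140 and 344 CPM for Cd69, and Cd69 is at 0 in the Rag1 row.

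Other molecules of the same stages were mostly lower in TMREhi. Of 37 further surface molecules of thymocyte and γδ maturation, 33 passed the level filter in retained barcodes, 7 higher and 26 lower in TMREhi, 2 and 16 of them by 2-fold, beside 10.0% and 29.9% of all genes, with a median log2 ratio of −0.86 beside −0.35. S1pr1, the egress receptor that CD69 opposes, stood at 26.2 against 219 CPM, 8.37-fold lower in TMREhi (5.01–13.5). Il2rb, the receptor chain for interleukins 2 and 15, was 5.89-fold lower (3.91–8.62). The tetraspanin gene Cd81 (77.1 against 28.5 CPM; 2.70, 0.912–13.2) and the costimulator gene Cd28 (131 against 66.6 CPM; 1.97, 0.949–4.94) leaned the other way, with intervals that held 1. Ly6d, a surface antigen of early lymphocytes, had 115 UMIs and 0. Cd52 was 1.77-fold lower (1.54–2.02). Cd3e was 1.82-fold lower (1.496–2.20) and Cd3g 1.61-fold lower (1.34–1.91), and Cd3d stood at 942 and 933 CPM. In the low-ribosomal class the list was closer to even, 15 higher and 21 lower with a median of −0.24 beside −0.06, with S1pr1 5.71-fold lower (4.23–7.67) and Cd28 2.32-fold higher (1.31–4.55).

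Partners of the members leaned the same way by direction and median, but not by 2-fold calls. Of 21 genes for cytoplasmic partners, all 21 passed in retained barcodes, 4 higher and 17 lower, with a median of −0.74 beside −0.35. By 2-fold, 1 was higher and 6 lower, beside 10.0% and 29.9% of all genes, so the lower calls were near the share of all genes. In the low-ribosomal class 9 were higher and 12 lower, with a median of −0.24 beside −0.06 for all genes. Lck, a kinase of T cell receptor signalling, stood at 313 against 523 CPM, 1.67-fold lower in TMREhi (1.25–2.20). Msn, which encodes moesin, a linker of CD44 to actin, was 1.89-fold lower (1.41–2.49). Its relatives Ezr (1.11, 0.714–1.83) and Rdx (1.24, 0.666–2.61) gave intervals that held 1. The ubiquitin ligase gene Cblb was 4.03-fold lower (2.18–6.96) and Ubash3a 3.95-fold lower (1.01–11.3) on 4 TMRElo UMIs. Siva1, whose product binds the CD27 tail, was 2.21-fold higher in TMREhi (1.11–5.14), and the adaptor gene Lat stood at 454 and 419 CPM (1.08, 0.802–1.498).

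Ligand genes were sparse, and 3 of the 8 found in the files passed. Cd48, the mouse ligand of CD2, was 2.97-fold lower in TMREhi (2.08–4.12) at 128 against 381 CPM, and 1.01 (0.650–1.65) as a TMREhi over TMRElo ratio in the low-ribosomal class. Cd244 (16.2 and 38.1 CPM) and Cd84 (48.5 and 38.1) gave intervals that held 1. Alcam, the ligand of CD6, had 12 UMIs and 0.

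**Figure D5:**
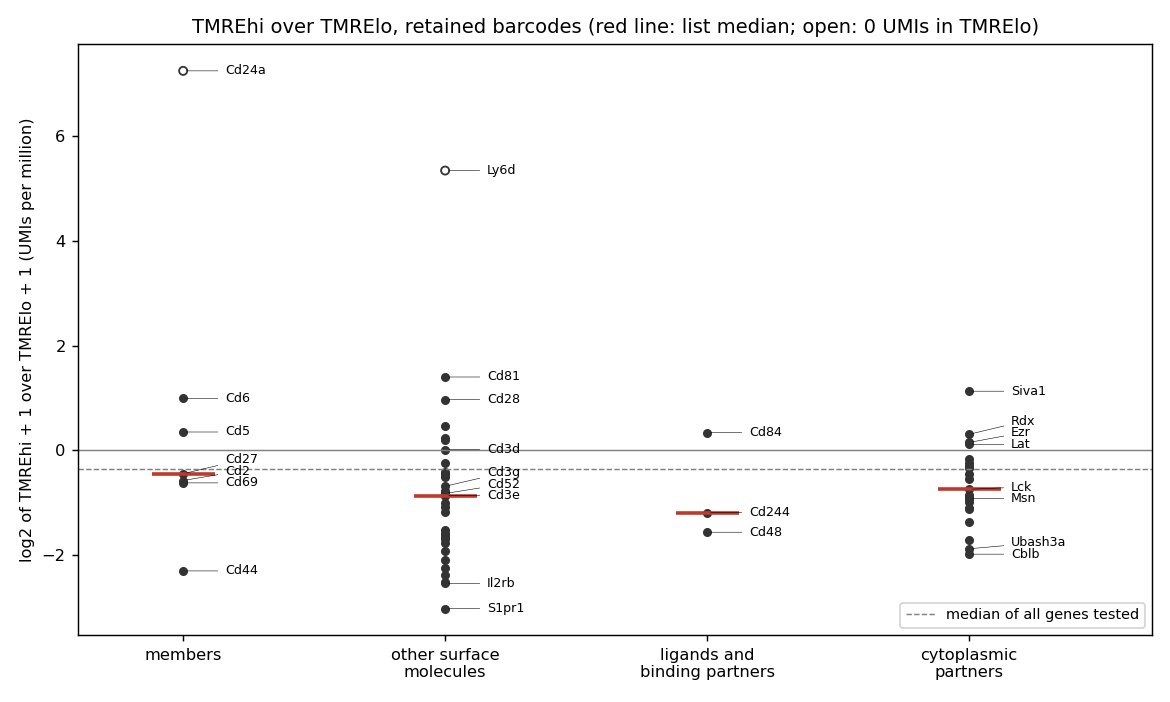
log2 ratio of TMREhi over TMRElo levels, each plus 1 CPM, in retained barcodes for the 7 members and 3 lists of related genes, with each point a gene, red lines the list medians and the dashed line the median of all genes. Open points are genes with 0 UMIs in TMRElo, whose height depends on the added 1, and surface molecules lie mostly below the dashed line (median −0.86).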

How the data were processed

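For each library the authors deposited raw UMI counts per gene and barcode, made with Cell Ranger 3.0.2 per the file headers and on genome build mm10 per the submitters' processing notes. No source used here gives the annotation release or the cell calling settings. Counts were summed over barcode sets and divided by their total to give UMIs per 1000000 (CPM). Poisson and binomial intervals are exact at 95% and cover counting error only; ratio intervals are conditional binomial. With 1 library per group no test was made. Shares used 1000 UMIs per barcode with seed 1, which kept 866 TMREhi and 84 TMRElo barcodes of those with at least 500 genes. A gene at 0 was compared against a floor of 3 UMIs per set, which is a convention and not a 95% limit. Groups under 10 barcodes were not compared.

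Scrublet called 2 TMREhi and 24 TMRElo doublets, which were kept, with their removal as an alternative. Named genes were the 7 members, per list the 4 with the most UMIs and the 2 highest and 2 lowest ratios among those averaging at least 20 CPM, and the 3 genes most like each member (at least 100 UMIs and an SD of at least 0.5). Of the genes so named 1, and of the marker genes 2, are not reported here. Ly6d, Xcl1 and Fcgr3, and Cd160, Itgae and Cbl in the closing section, were named after their values were seen. The members and lists were chosen with earlier results of these data known. Levels of different genes were not compared. Sequences are from RefSeq and positions from GENCODE vM21, which held 31011 of the 31053 gene IDs. The computations were checked on simulated counts. Work was done in Python 3.11.15 with scanpy 1.11.5, matplotlib 3.10.9, pandas 2.3.3, scipy 1.17.1 and numpy 2.4.6. Alternatives covered barcode filters, class limits, scaling, thinning depth, doublets, pseudocount and the top barcode.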

Additional observations from a re-analysis of the deposited data

How the results depend on the processing

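No paired analysis was possible because each group is 1 library, and no replicate could be left out. The count of members higher in TMREhi, 3 of 7, was 5 among low-ribosomal barcodes, as Cd2 and Cd69 then read above equality with intervals that held 1. Cd44 was lower in TMREhi by a log2 ratio of −2.30, which turned to 0.22 without the top barcode of each library. The Cd24a share among Cd44-positive barcodes, 2.94%, was 0% at 2000 UMIs (16.5% in the rest), at 500 UMIs (3.72%), without Rag1 barcodes lacking V (7.41%) and in the Vγ1 family alone (9.50%). Among Cd27-positive barcodes that share was 21.8% at 2000 UMIs (13.5% in the rest) and 4.50% at 500 UMIs (3.50%). Shares rise with depth by construction. Another 50 alternative values for counts of members, lists and pairs stayed within their limits, as did 146 for single members, while 7 of the latter moved and 1 reversed. Those limits were wide and do not mean stable values. The Cd24a log2 ratio of 7.25 was 2.86 over all deposited barcodes and still within them. So was Cd6, at 0.995 and at 4.32 without the top barcode. Settings by leading V in the library and pair comparisons, myeloid barcodes, class and scaling in the leading V comparison, and scaling in the class comparison were added after seeing the data. At 34 retained TMRElo barcodes, 3 UMIs equal 28.5 CPM, so Cd5, Cd6 and Cd44 are thinly measured there.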

Other observations

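A further split, chosen after seeing the data, stayed within high-ribosomal Vγ1-family-led TMREhi barcodes thinned to 2000 UMIs, of which 46 held a Cd24a UMI and 149 did not. Most of the further surface molecules of maturation, a list that holds both early and late genes, were lower in the Cd24a-positive barcodes. Cd52 stood at 467 against 1678 CPM, a ratio of 0.279 (0.199–0.381). Cd160, a receptor of cytotoxic lymphocytes, gave 0.223 (0.0589–0.603) and Il2rb 0.209 (0.0242–0.821, on 2 UMIs). Itgae, the integrin chain CD103, had 0 UMIs against 17. Of 33 such molecules 8 were higher and 25 lower, 2 and 15 of them by 2-fold, beside 13.6% of genes higher and 15.96% lower, and the median log2 ratio was −0.67 beside 0.02 for all genes. Of those called lower, only Cd52, Cd160, Il2rb and Itgae had intervals wholly below 1. The others rested on few UMIs and had intervals that held 1, such as S1pr1 on 1 UMI against 18 (0.180, 0.00432–1.14). Of the cytoplasmic partners, 20 passed, 11 higher and 9 lower, 3 and 3 of them by 2-fold. Their median log2 ratio was 0.10 beside 0.02 for all genes. Among them Cbl, a ubiquitin ligase gene, was 2.24-fold higher (1.32–3.76), while its relative Cblb gave 0.270 (0.00631–1.82). Cd27 (1.15, 0.665–1.93), Cd2 (1.25, 0.536–2.67) and Cd5 (2.31, 0.919–5.601) gave intervals that held 1.

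Cd24a transcripts were rare in TMRElo. Of its 196 deposited barcodes, 4 held 1 Cd24a UMI each, none in the high-ribosomal class, and 1 of the 4 also held 4 Cd44 UMIs.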
